A study of Mus musculus with 49 samples.

Results

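Members were chosen by their measured levels: a probe set was kept where all 7 LAP-tTA livers and all 7 distant livers lay above, or all lay below, every one of the 7 TRE-MET and 7 control livers on the log2 scale. The rule kept 105 of the 43681 probe sets of a custom Affymetrix mouse array (0.24%), 75 of them higher in LAP-tTA and distant livers (0.172%) and 30 lower (0.0687%). Because these log2 intensities selected the members, the differences between those groups are given as a description without a test. Of the members, 99 carried a gene symbol, 96 different ones in all, and 6 were probe sets with no gene symbol.

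Livers of FVB mice made up 6 groups. LAP-tTA mice, aged 7 weeks, carry a liver-specific LAP promoter that drives the tetracycline transactivator tTA, and the LAP-tTA group held 7 livers. Distant livers (7), adjacent livers (7) and tumors (14, with 2 from each mouse) came from 7 mice aged 14 weeks, labelled as carrying LAP-tTA together with Tre-c-Met, in which the transactivator turns on human c-MET under a Tet operator. The words distant and adjacent are a reading of abbreviations in the labels. The 7 TRE-MET livers came from mice aged 6 weeks whose labels give Tre-c-Met alone, and the 7 control livers from wild-type mice aged 14 weeks. One TRE-MET liver, replicate 1, has 6 weeks in its title and 14 in its age label.

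The labels and the methods of the study give different genotypes for the TRE-MET group. By the labels, the members follow carriage of LAP-tTA, present in LAP-tTA and distant livers and absent from TRE-MET and control livers. By the methods, TRE-MET mice carried the driver and the c-MET transgene together, and the LAP-tTA strain carried more copies of the driver and no c-MET transgene. The transactivator itself was not measured here, so the levels do not settle which account holds. The members are therefore called here by their rule.

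The LAP promoter is that of Cebpb, which encodes a liver-enriched leucine zipper transcription factor, and the tTA protein joins a bacterial Tet repressor to a viral activation domain. Adult liver breaks down purines and steroids and conjugates foreign compounds with glutathione or sulfate, and its cells carry interferon-inducible genes of antiviral defence. Members with each of these known roles are described in turn.

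Across all 105 members, a position was computed for each sample, with 0 at the mean of TRE-MET and control livers and 1 at the mean of LAP-tTA and distant livers. The median position over members was 1.06 at the lowest, 1.11 at the median and 1.15 at the highest LAP-tTA liver, 0.79, 0.86 and 0.94 for distant livers, 0.75, 0.83 and 0.87 for adjacent livers, and 0.65, 0.74 and 0.84 for tumors. It lay between -0.06 and 0.07 in TRE-MET livers and between -0.01 and 0.10 in control livers. The order of groups at the median was thus LAP-tTA, distant, adjacent and tumor, with LAP-tTA livers apart from the other 3 and those 3 overlapping their neighbours in this order. Adjacent livers and tumors were not used by the rule, but they share their mice with the distant livers.

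**Figure D1:**
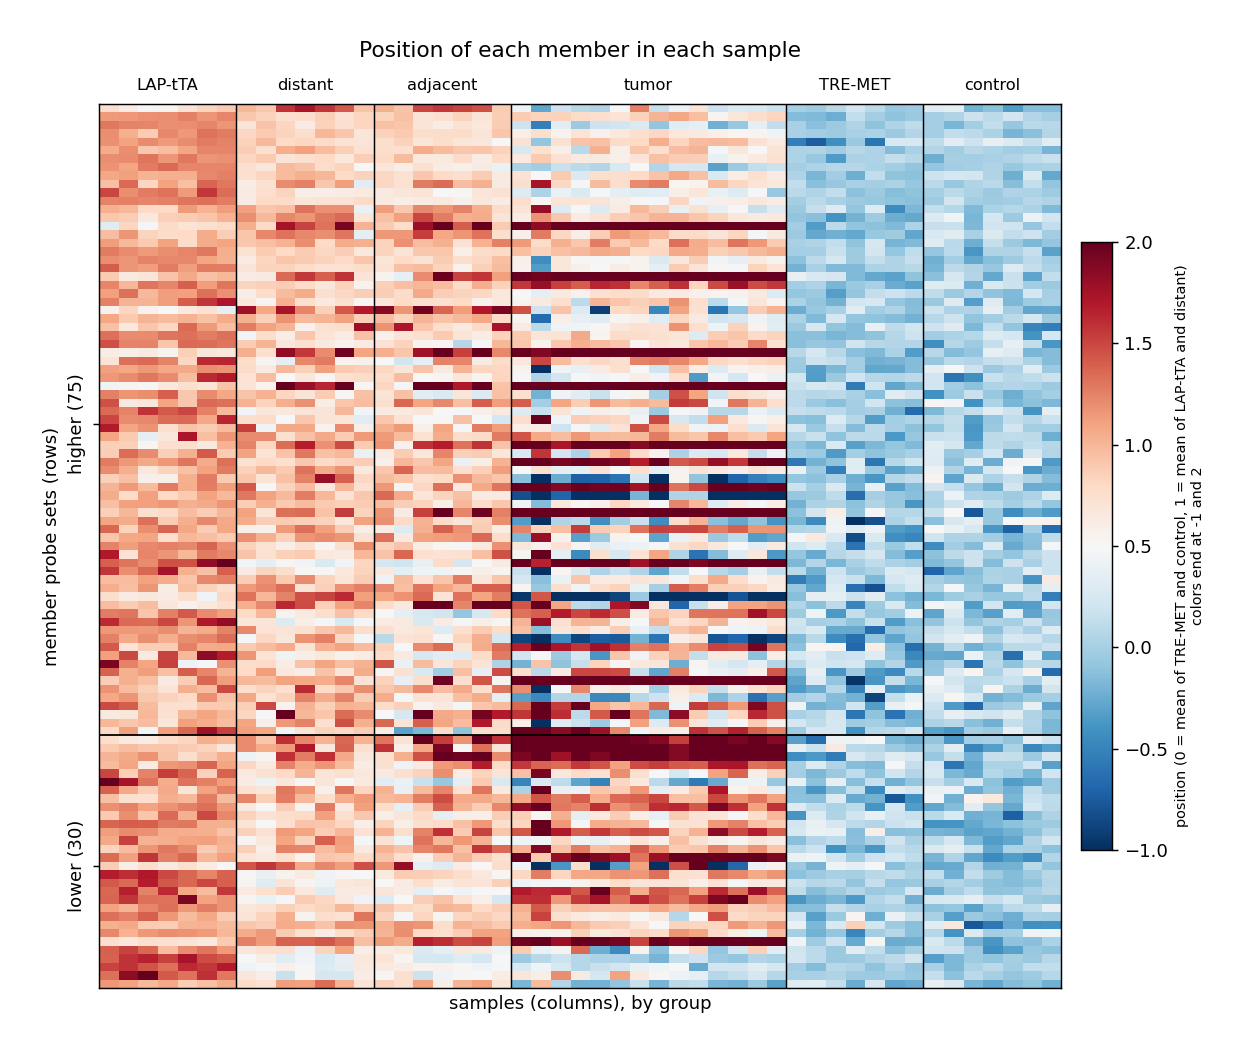
Each row is 1 of the 105 member probe sets and each column 1 of the 49 samples, colored by position, a ratio without unit in which 0 is the mean of TRE-MET and control livers and 1 the mean of LAP-tTA and distant livers. Median positions are near 1 in LAP-tTA, distant and adjacent livers and near 0 in TRE-MET and control livers, while single rows depart from them, such as Psmc3ip at a mean of 1.53 in LAP-tTA and 0.47 in distant livers and Lyve1 at 1.86 in adjacent livers, and rows in the tumor block run past both ends of the scale.

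Xdh, which encodes xanthine dehydrogenase and oxidizes purines to urate, was read by 2 member probe sets. At the brighter one, the log2 intensity had its lowest, median and highest values at 1.89, 2.04 and 2.23 in LAP-tTA livers, 0.66, 0.97 and 1.20 in distant livers, 0.58, 0.99 and 1.31 in adjacent livers, 0.12, 0.97 and 1.72 in tumors, -2.17, -1.80 and -1.09 in TRE-MET livers and -1.52, -1.29 and -0.86 in control livers. All livers and tumors on the high side lay above every TRE-MET and control liver, and the LAP-tTA livers lay above every distant, adjacent and tumor sample. The mean was 3.78 higher in LAP-tTA than in TRE-MET livers on the log2 scale (13.8-fold) and 2.15 higher in distant than in control livers (4.44-fold). The dimmer Xdh probe set ran the same way, 3.13 and 1.95 higher. A further Xdh probe set that was not a member was dim and ran the other way, by -0.78 in LAP-tTA against TRE-MET livers and -0.60 in distant against control livers.

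Corin, a membrane protease that processes pro-atrial natriuretic peptide in the heart, was dimmer. Its lowest, median and highest log2 intensities were -1.66, -1.32 and -1.06 in LAP-tTA livers, -3.0, -2.37 and -1.93 in distant livers, -3.25, -2.76 and -2.46 in adjacent livers, -4.88, -3.91 and -3.01 in tumors, -4.39, -4.14 and -4.02 in TRE-MET livers and -4.37, -4.17 and -4.08 in control livers. LAP-tTA livers stood apart from every other sample, distant and adjacent livers overlapped each other, and the tumors spread from below to above the TRE-MET and control range. Corin was 7.06-fold higher in LAP-tTA than in TRE-MET livers and 3.56-fold higher in distant than in control livers. The promoter of Corin on the minus strand, chr5:72504491-72504790 of GRCm38.p6, is shown because Corin was a marker of the set, with its CCAAT motif in capitals as in the sequences further on.
Corin: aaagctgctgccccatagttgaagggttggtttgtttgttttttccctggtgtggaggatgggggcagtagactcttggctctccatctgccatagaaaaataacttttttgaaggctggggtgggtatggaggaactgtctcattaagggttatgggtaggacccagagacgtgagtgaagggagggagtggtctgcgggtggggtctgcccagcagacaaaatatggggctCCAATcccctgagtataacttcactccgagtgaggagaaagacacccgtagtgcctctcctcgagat

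Gdpd3, a glycerophosphodiester phosphodiesterase with lysophospholipase D activity, had been named as a marker of the set but was not a member. It ran from -4.24 to -3.47 in LAP-tTA livers, 1.49 to 2.50 in distant livers, 1.37 to 2.56 in adjacent livers, 0.80 to 3.08 in tumors, 2.29 to 2.94 in TRE-MET livers and 2.51 to 3.18 in control livers. Distant livers therefore overlapped the TRE-MET livers but lay just below every control liver, with a mean difference of -0.95 from control livers. Values of -3.47 or lower were those of LAP-tTA livers alone among the 6 groups.

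Genes of the tripartite-motif and interferon-inducible p200 families were members on the higher side. Trim12a, Trim30d, Trim34a and Trim5 encode tripartite-motif proteins, a family of ubiquitin ligases with roles in defence against viruses, and lie close together on chromosome 7. Trim30d ran from -1.32 to -0.48 in LAP-tTA livers, -1.79 to -0.79 in distant livers, -1.71 to -0.92 in adjacent livers, -3.42 to -1.0 in tumors, -4.05 to -3.45 in TRE-MET livers and -4.16 to -3.46 in control livers. Its gap between both sides of the rule, 1.66 on the log2 scale, was the widest of the 105. Trim12a was 3.16 higher in LAP-tTA than in TRE-MET livers and 2.32 higher in distant than in control livers, with its brightest TRE-MET or control liver at -4.80 and its dimmest tumor at -3.93. For Trim34a these differences were 1.61 and 1.11, and for Trim5 1.78 and 0.94. A dim Trim12a probe set that was not a member differed by 0.10 and -0.04 in these comparisons. Members of this family resemble each other in sequence, and the Trim34a probe set is of a type that can bind more than 1 transcript, so signal could be shared among them.

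The promoters of the 4 Trim genes are shown because the genes neighbour each other and moved the same way, with 250 bases before and 50 after the start, from RefSeq on GRCm38.p6. Capitals mark matches on either strand to CCAAT and, in windows that hold them, to the TATA box letters TATAAA or to TTGCNNAA. Trim34a lies at chr7:104244207-104244506 (plus strand), Trim5 at chr7:104288057-104288356, Trim12a at chr7:104315446-104315745 and Trim30d at chr7:104507800-104508099 (minus strand).
Trim34a: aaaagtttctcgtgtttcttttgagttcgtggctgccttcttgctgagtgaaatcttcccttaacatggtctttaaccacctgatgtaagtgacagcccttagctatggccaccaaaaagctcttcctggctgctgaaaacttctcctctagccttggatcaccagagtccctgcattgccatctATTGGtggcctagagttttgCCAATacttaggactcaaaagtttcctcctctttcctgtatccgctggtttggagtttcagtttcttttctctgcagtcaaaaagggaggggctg
Trim5: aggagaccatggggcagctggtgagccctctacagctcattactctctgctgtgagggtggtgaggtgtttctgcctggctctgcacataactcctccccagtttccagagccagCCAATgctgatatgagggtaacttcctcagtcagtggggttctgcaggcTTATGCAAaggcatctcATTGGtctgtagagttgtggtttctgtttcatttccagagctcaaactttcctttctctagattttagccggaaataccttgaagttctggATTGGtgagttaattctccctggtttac
Trim12a: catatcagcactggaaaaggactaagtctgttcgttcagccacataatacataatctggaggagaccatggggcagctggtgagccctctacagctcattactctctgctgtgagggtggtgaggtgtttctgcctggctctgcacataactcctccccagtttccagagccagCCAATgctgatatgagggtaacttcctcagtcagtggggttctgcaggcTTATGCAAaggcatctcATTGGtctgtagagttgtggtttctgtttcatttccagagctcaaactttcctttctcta
Trim30d: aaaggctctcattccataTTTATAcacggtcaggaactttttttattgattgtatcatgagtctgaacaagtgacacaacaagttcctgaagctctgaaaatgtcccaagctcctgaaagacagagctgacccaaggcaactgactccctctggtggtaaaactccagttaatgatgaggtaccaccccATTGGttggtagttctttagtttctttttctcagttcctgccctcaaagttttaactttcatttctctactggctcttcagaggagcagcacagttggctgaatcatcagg
The Trim5 and Trim12a windows shared an identical run of 241 bases, beginning at base 1 of Trim5 and base 60 of Trim12a. The longest run shared by any other pair among these 4 and Corin was 10 bases.

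Among all members, 79 of 95 gene symbols placed in the RefSeq table had a promoter entry. CCAAT stood in 48.1% of them, against 37.9% of the 27025 promoters in the table, TATAAA in 8.86% against 14.2%, CACGTG in 8.86% against 7.24% and AGGTCA in 11.4% against 16%. The letters TTGCNNAA, of sites that C/EBP proteins bind, stood in 10.1% of member promoters, against 10.8% of all. The tet operator letters TGATAG stood in 6.33%, against 7.39%. These shares count letters on both strands and describe the windows alone.

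Ifi204 and Ifi203, interferon-inducible genes of the p200 family that sense DNA, were both higher. Ifi204 ran from -3.02 to -1.81 in LAP-tTA livers, -4.10 to -2.06 in distant livers, -3.43 to -1.88 in adjacent livers, -3.79 to -1.0 in tumors, -5.10 to -4.52 in TRE-MET livers and -5.13 to -4.50 in control livers. All 14 tumors lay above the TRE-MET and control livers at Ifi204, and 7 of 14 did at Ifi203. The Ifi204 member probe set can bind more than 1 transcript. Dim Ifi204 probe sets outside the rule differed by -0.03 and 0.03 in LAP-tTA against TRE-MET livers, and by -0.01 and 0.11 in distant against control livers. Pira2, an activating receptor of myeloid cells, was 1.90 higher in LAP-tTA than in TRE-MET livers and 1.94 higher in distant than in control livers. A brighter Pira2 probe set that was not a member differed by -0.03 and 0.14 in these comparisons.

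Enzymes that conjugate or reduce small molecules were members on both sides. Gstm5, a mu-class glutathione transferase, ran from 3.04 to 3.95 in LAP-tTA livers, 1.86 to 2.37 in distant livers, 1.65 to 2.16 in adjacent livers, 0.42 to 2.06 in tumors, 0.27 to 0.87 in TRE-MET livers and 0.47 to 0.79 in control livers. LAP-tTA livers again stood above all others. Akr1c19 and Akr1e1, aldo-keto reductases that lie near each other with 8 annotated genes between them, went in opposite directions. Akr1c19 ran from 2.35 to 2.83 in LAP-tTA livers, 1.28 to 2.04 in distant livers, 0.75 to 1.69 in adjacent livers, -0.75 to 2.19 in tumors, -2.45 to 0.16 in TRE-MET livers and -0.23 to 0.47 in control livers. TRE-MET livers 6 and 7, at 0.16 and 0.15, lay among the control livers, and the other 5, at -2.45 to -0.67, lay below them. On the means, Akr1c19 was 3.80 higher in LAP-tTA than in TRE-MET livers (13.9-fold), 2.46 higher in LAP-tTA than in control livers (5.49-fold) and 1.44 higher in distant than in control livers (2.71-fold). Akr1e1 ran from -3.53 to -1.81 in LAP-tTA livers, -0.57 to 0.44 in distant livers, -0.71 to 0.41 in adjacent livers, -1.63 to 0.64 in tumors, 0.68 to 0.90 in TRE-MET livers and 0.49 to 1.01 in control livers, so LAP-tTA livers were far below distant livers and distant livers just below control livers. Sult5a1, a cytosolic sulfotransferase, showed the reverse order, lower in distant livers (-1.10 to -0.29) than in LAP-tTA livers (-0.18 to 0.23), with TRE-MET livers at 0.41 to 1.76 and control livers at 0.87 to 1.96.

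Cyp17a1, the steroid 17-hydroxylase and lyase of sex steroid synthesis, had the largest mean difference between both sides of the rule, 3.16 on the log2 scale. Its lowest, median and highest values were 0.34, 0.96 and 1.51 in LAP-tTA livers, 1.56, 3.20 and 4.16 in distant livers, 1.49, 3.31 and 3.64 in adjacent livers, -2.19, -0.57 and 2.69 in tumors, -1.52, -1.29 and -0.62 in TRE-MET livers and -2.35, -1.74 and -0.16 in control livers. Distant and adjacent livers lay above LAP-tTA livers with no overlap with the exception of the lowest adjacent liver, at 1.49 just under the highest LAP-tTA liver. Cyp17a1 was 4.25-fold higher in LAP-tTA than in TRE-MET livers and 18.8-fold higher in distant than in control livers.

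Of the other genes, Snrnp25, a protein of the minor spliceosome, ran from 1.78 to 1.96 in LAP-tTA livers, 0.53 to 0.90 in distant livers, 0.44 to 0.63 in adjacent livers, 0.19 to 0.95 in tumors, -0.97 to -0.52 in TRE-MET livers and -0.79 to -0.26 in control livers. It neighbours Rhbdf1, an inactive rhomboid protein that was also a member on the higher side, with 0 annotated genes between them. Gm4992, whose function is not described here, was 2.64 higher in LAP-tTA than in TRE-MET livers and 1.84 higher in distant than in control livers.

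**Figure D2:**
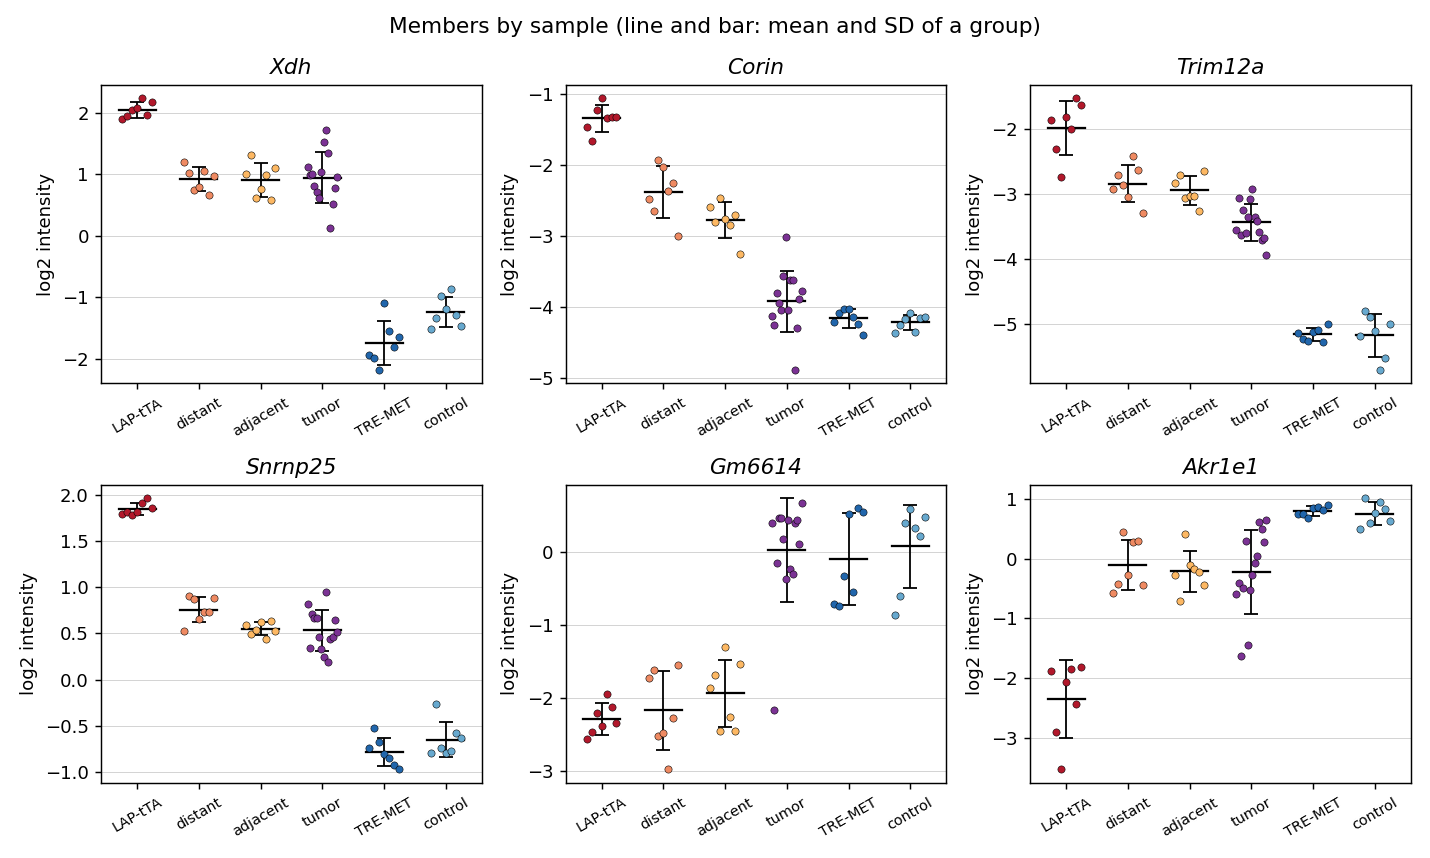
Log2 intensity of 6 members in LAP-tTA, distant and adjacent livers, tumors, TRE-MET and control livers, with 1 point per sample and a line and bar for the mean and SD of each group. Xdh, Trim12a and Snrnp25 remain high in all tumors, Corin in tumors spreads from -4.88 to -3.01, Gm6614 lies between -2.16 and 0.68 in tumors, and Akr1e1 is lowest in LAP-tTA livers.

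The 30 lower members held fewer wide gaps, with 1 member past a gap of 0.5, against 15 of the 75 on the higher side. That member, Gm6614, is predicted and has no role given here. Its lowest, median and highest values were -2.57, -2.35 and -1.94 in LAP-tTA livers, -2.98, -2.28 and -1.55 in distant livers, -2.45, -1.86 and -1.30 in adjacent livers, -2.16, 0.29 and 0.68 in tumors, -0.74, -0.32 and 0.61 in TRE-MET livers and -0.86, 0.33 and 0.59 in control livers. All low livers lay below the TRE-MET and control livers, and all tumors but tumor 1b, at -2.16, lay in or near the TRE-MET and control range. Psmc3ip, which takes part in meiotic recombination, was 7.56-fold lower in LAP-tTA than in TRE-MET livers and 1.77-fold lower in distant than in control livers. Pik3ap1, an adaptor that links receptors of B cells to phosphoinositide 3-kinase, was 5.82-fold and 1.92-fold lower. A dimmer Pik3ap1 probe set that was not a member ran the other way, by 0.15 and 0.12 on the log2 scale. Acot11, an acyl-CoA thioesterase, was lower at both of its member probe sets, by 1.54 and 1.96 in LAP-tTA against TRE-MET livers and by 1.06 and 1.18 in distant against control livers. Plet1, Shoc2, a scaffold of RAS and RAF signalling, and Adamts13, the protease that cleaves von Willebrand factor, were 4.02-fold, 3.02-fold and 2.84-fold lower in LAP-tTA than in TRE-MET livers. Gm4788 was 3.61-fold lower there, and Nat8f4, of an acetyltransferase family, 2.72-fold. A brighter Gm4788 probe set that was not a member differed by -0.92 on the log2 scale there, and by 0.49 in distant against control livers.

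Over the whole set, the LAP-tTA minus TRE-MET difference was larger in size than the distant minus control difference at 80 of 105 members, with a median ratio of distant to LAP-tTA differences of 0.79. At 28 members the LAP-tTA livers lay beyond every distant liver on the side away from TRE-MET and control, and at 5 members the distant livers lay beyond every LAP-tTA liver. LAP-tTA and distant livers did not overlap, in either direction, at 4.3% of all probe sets. By limma, 6.86% of all probe sets were called in LAP-tTA against TRE-MET livers (3.6% higher, 3.26% lower) and 5.06% in distant against control livers (2.47% higher, 2.6% lower), which are backgrounds only, since the rule used both comparisons. Median differences were 1.06 for LAP-tTA against TRE-MET and 0.86 for distant against control on the higher side, and -0.96 and -0.78 on the lower side. Age differs between LAP-tTA (7 weeks) and distant (14 weeks) livers, so age and genotype cannot be told apart in that comparison. The Y-linked gene Eif2s3y, described further on, differed as well. It was present in all 7 LAP-tTA livers and low in 4 of 7 distant livers, and its part was not tested.

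**Figure D3:**
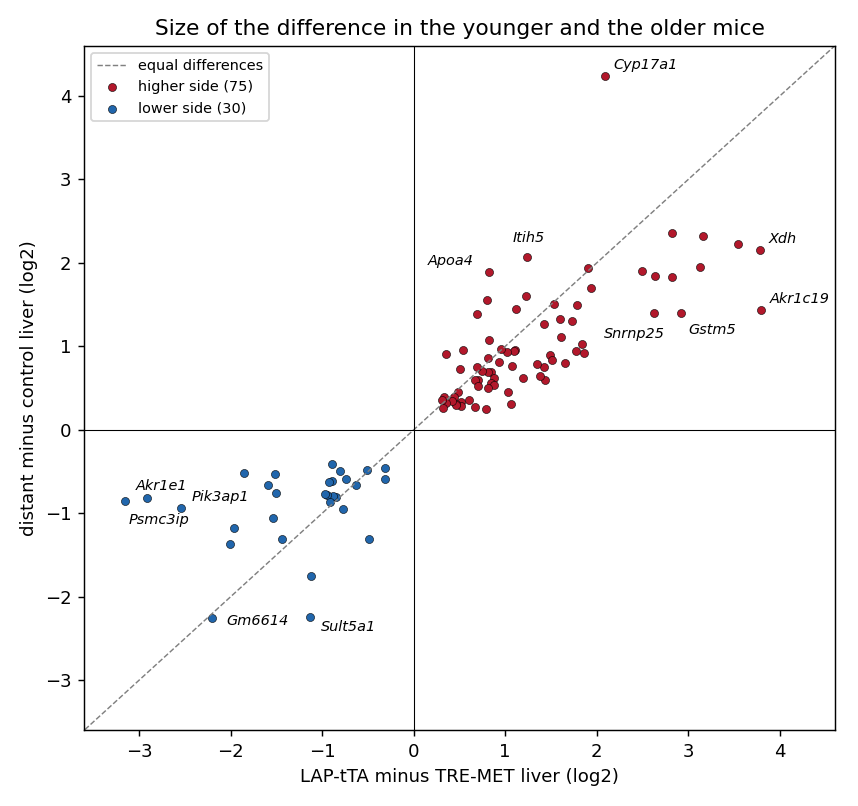
Each point is a member, with the LAP-tTA minus TRE-MET difference on the x axis and the distant minus control difference on the y axis, both in log2, and the dashed line where they are equal. At 80 of 105 members the difference on the x axis is larger in size, with Akr1c19, Psmc3ip and Akr1e1 far to that side and Cyp17a1 and Sult5a1 to the other.

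The members at the threshold show what the rule just let in or left out. The 3 named members with the smallest gap were Dtd1 at 0.01, Nat8f4 at 0.01 and Spp1, osteopontin, at 0.02. Dnaja4, Plcl2 and 1700086O06Rik were the nearest named probe sets outside it. In 52 members the mean difference between both sides was at least 1 on the log2 scale, and sizes ran from 0.29 to 3.16 with a median of 0.98. For 19 members the dimmer side lay below the median of all values, and for 5 the brighter side did too. Of 37 member genes with other probe sets on the array, 39 of 54 such probe sets differed in the same direction, 12 of them by more than 0.5, and 15 in the opposite direction, 1 of them by more than 0.5.

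Some members lie near each other in the genome. With at most 10 annotated genes between them, 16 of 95 placed member genes had another member nearby (16.8%), against 909 of 21350 measured genes that were not members (4.26%). The members formed 10 such pairs, and in 9 of them both genes differed in the same direction. Most members, 75 of 105, lay on the higher side, so many pairs would share a direction in any case. Several of the pairs were among the Trim genes, whose signal could be shared. Besides the Trim genes, Ifi204 with Ifi203 and Snrnp25 with Rhbdf1, the pairs were Sfxn2 with Cyp17a1, Tm7sf3 with Med21, Plet1 with Bco2, which cleaves carotenoids, and Akr1c19 with Akr1e1, the pair that went opposite ways.

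Adjacent livers held the pattern at most members. All 7 adjacent livers lay beyond every TRE-MET and control liver, on the members' side, at 76 of 105 members, 56 of the 75 higher and 20 of the 30 lower. Over all probe sets, all 7 adjacent livers lay beyond that range at 0.687%, above it at 0.419% and below it at 0.268%. At 93 members at least 6 of 7 did, a looser cut whose share over all probe sets was not counted. Golm2, Plet1, BC029722, Csnk2a1, a catalytic subunit of casein kinase 2, and Cdh13, T-cadherin, were among those with 6 of 7, and Gm4788, Nat8f4 and Spp1 had 5 of 7. Ercc6l2 and Med21, a Mediator subunit, had the fewest, 2 of 7. Brighter Csnk2a1 probe sets that were not members differed by 0.07 and 0.14 in LAP-tTA against TRE-MET livers. In distant against control livers those probe sets differed by -0.16 and -0.12. Within the 7 mice, adjacent and distant livers differed by a median size of 0.086, none of the members by more than 0.5. In all 7 mice the difference had the same sign at 11 members, with 4.74% of all probe sets doing so. The adjacent livers come from the same mice as the distant ones, so these counts are not independent of the rule.

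In the tumors, all 14 lay beyond the TRE-MET and control range on the members' side at 48 of 105 members, 31 of the 75 higher and 17 of the 30 lower. Over all probe sets, all 14 tumors lay beyond it at 4.4%, above it at 2.77% and below it at 1.63%. Without tumor 1b, the 13 other tumors lay beyond it at 52 members. At least 12 tumors did so at 68 members, fewer than 7 at 13, and at 2 members, Pik3ap1 and Hacl1, no tumor did. For the cuts other than all 14 tumors, the share over all probe sets was not counted. Xdh, the 3 members Trim12a, Trim30d and Trim34a, Ifi204, Snrnp25 and Rhbdf1 were among those with all 14. With 14 tumors the condition is stricter than with 7 adjacent livers, so the counts of both tissues are not set against each other. The median position was 0.71 in tumors and 0.83 in adjacent livers for the higher side, and 0.97 in tumors and 0.84 in adjacent livers for the lower side.

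The difference between tumors and adjacent livers was tested, since neither group entered the rule. Adjacent livers share their mice with the distant livers of the rule, and differed from them by a median size of 0.086. The calls and directions at the members are therefore not fully independent of how the members were chosen. The limma fit over all probe sets averaged both tumors of a mouse and held no term for the mouse. In this unpaired fit 61 of the 105 members passed an adjusted p of 0.05. Of them, 20 were higher and 41 lower in tumors than in adjacent liver. Over all probe sets 36.2% passed, 12.8% higher and 23.5% lower. By side, 48 of 75 higher members and 13 of 30 lower members passed. Relative to the direction of the rule, 34 of the 61 moved toward the TRE-MET and control livers and 27 moved further away. The 34 were 31 of the 48 called higher members and 3 of the 13 called lower members. Calls over all probe sets were mostly lower in tumors too, so the 34 is not read as a trait of the members. The direction counts depended on the scaling. Of the probe sets called, 35.2% were higher in tumors, 46% after quantile normalization and 65.3% with the sample medians set equal, where 24 members were higher and 26 lower, and the median over all probe sets was -0.10 as deposited and -0.002 with medians set equal. In whole-tissue RNA, fewer cells of a type and less RNA per cell cannot be told apart.

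Markers of cell types moved between the same tissues. Leaving out members, limma called 1 of 9 hepatocyte markers higher and 5 lower in tumors than in adjacent liver, 0 higher and 6 lower of 10 Kupffer cell and macrophage markers, 0 and 7 of 9 lymphocyte markers, 0 and 2 of 8 neutrophil markers, 1 and 7 of 9 markers of sinusoidal endothelium, 6 and 3 of 11 stellate cell and fibroblast markers, 2 and 0 of 6 cholangiocyte markers, 0 and 0 of 4 erythroid markers and 2 and 4 of 13 markers of pancreas, fat and muscle, where 40.7% of all named genes were called, 16.7% higher and 24% lower. With sample medians set equal, 3 hepatocyte, 5 Kupffer cell, 2 lymphocyte and 7 endothelial markers were called lower. Without tumor 1b, 5 neutrophil markers were called lower. The summed linear intensity of the hepatocyte list was 362 to 434 in the tumors other than tumor 1b and 462 to 507 in adjacent livers, and that of the endothelial list was 7.57 to 17.5 and 23.2 to 28.0, with no overlap in either (the endothelial sum includes the member Lyve1). For Kupffer cells these sums were 7.99 to 31.5 in tumors and 20.1 to 39.6 in adjacent livers, with overlap, and for stellate cells they reached 75.1 in tumors and 34.6 in adjacent livers. The part of these shifts in the members' tumor values was not tested.

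The largest decreases in tumors among named members were at Cyp17a1, Hacl1, Apoa4, Ctnnbip1, Pm20d1 and Corin. Cyp17a1 averaged -0.29 ± 0.73 in tumors and 2.72 ± 0.97 in adjacent livers (SD, n = 7 mice each) and fell by 3.01 with an SE of 0.40 (8.05-fold, limma adjusted p = 5.63e-05), lower in all 7 mice. Hacl1, a lyase of peroxisomal fatty acid oxidation, averaged 3.35 ± 0.69 in tumors and 5.13 ± 0.20 in adjacent livers and fell by 1.78 (limma adjusted p = 6.5e-05). Apoa4, a lipid-carrying apolipoprotein, fell by 1.56 (limma adjusted p = 0.000778) and Ctnnbip1, an inhibitor of beta-catenin and TCF, by 1.27 (limma adjusted p = 5.94e-06). Each of these 4 genes was lower in tumors in 7 of 7 mice. Pm20d1, an enzyme that forms N-acyl amino acids, fell by 1.22 and Corin by 1.14 (limma adjusted p = 3.22e-06 and 4.86e-05). A brighter Pm20d1 probe set that was not a member differed by 0.002 in LAP-tTA against TRE-MET livers. In distant against control livers that probe set differed by -0.06. Gstm5 fell by 0.62 (limma adjusted p = 0.00267) and Trim12a by 0.49 (limma adjusted p = 0.00525). A probe set with no gene symbol fell by 1.94 (limma adjusted p = 1.84e-05).

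The largest increases were at Itih5, Golm2, Gm6614, Golm1 and Cnot11. Itih5, an inter-alpha-trypsin inhibitor heavy chain, averaged 2.05 ± 0.42 in tumors and -0.22 ± 0.99 in adjacent livers at its first probe set, a rise of 2.26 with an SE of 0.36 (4.8-fold, limma adjusted p = 0.000241), and rose by 1.87 at its second (limma adjusted p = 0.000103). Golm2 and Golm1, related Golgi membrane proteins of which Golm1 is known as a serum marker in liver cancer, rose by 1.99 and 1.91 (limma adjusted p = 0.000156 and 9.29e-05). Gm6614 rose by 1.96 (limma adjusted p = 1.22e-05), Cnot11, of the CCR4-NOT deadenylase complex, by 1.28 (limma adjusted p = 9.54e-08) and BC029722 by 1.02 (limma adjusted p = 2.04e-05). Each of these was higher in 7 of 7 mice. Itih5, Golm1, Golm2 and Cnot11 were higher members, so they moved further from the TRE-MET and control livers, while Gm6614, a lower member, moved toward them. Pik3ap1 rose by 0.64 and Psmc3ip by 0.55 (limma adjusted p = 0.00129 and 0.00023), each in 7 of 7 mice.

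Among the members that did not pass, the brighter Xdh probe set differed by 0.04 between tumors and adjacent livers, the dimmer one by -0.13, and Snrnp25, Akr1e1, Akr1c19 and Spp1 did not pass either. Lyve1, a hyaluronan receptor of sinusoidal endothelium, differed by -0.55 and did not pass (limma adjusted p = 0.107), with tumors higher in 1 of 7 mice. Of the 9 other endothelial markers 7 fell, Clec4g by 3.13, Bmp2 by 2.26 and Stab2 by 1.24 among them. Pecam1, also of that list, was called higher, by 0.42. Trim30d passed narrowly, at -0.58 with a limma adjusted p = 0.0468, and lost the call in 9 alternatives. Pira2, at -0.87 (limma adjusted p = 0.0152), lost it in 3.

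**Figure D4:**
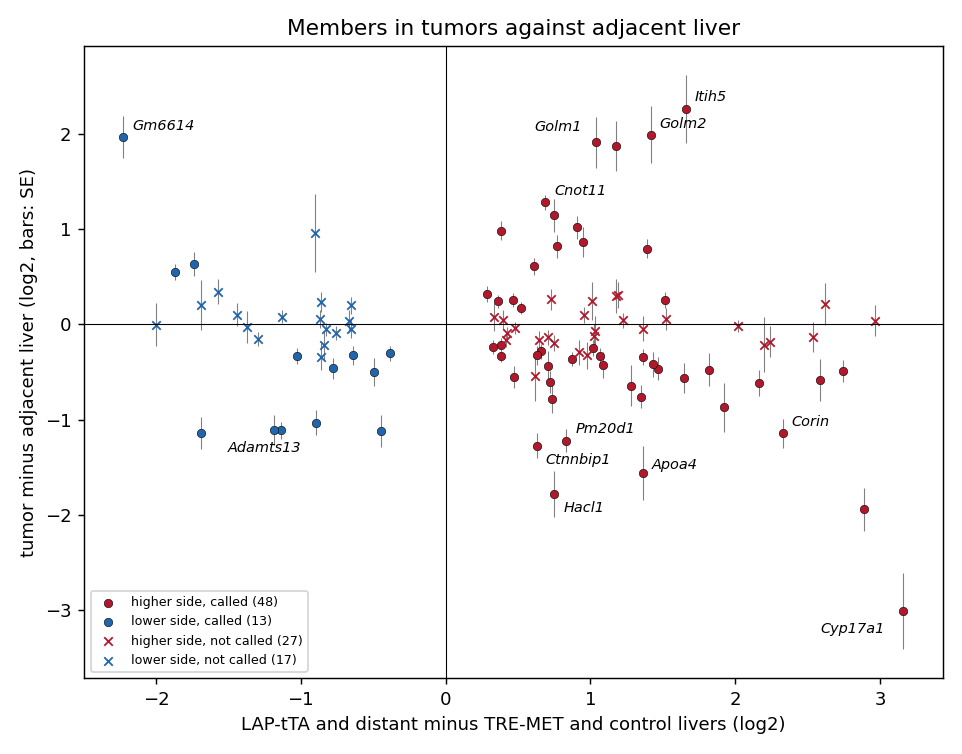
Each point is a member, with the mean difference between LAP-tTA and distant livers and TRE-MET and control livers on the x axis and the tumor minus adjacent difference on the y axis, both in log2, with bars for the SE. Filled points passed an adjusted p of 0.05 and crosses did not, and Cyp17a1 at -3.01 and Itih5 at 2.26 mark the ends of the y axis.

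Variation among mice of 1 group went along with the Y-linked gene Eif2s3y at some members. The labels used here give no sex. Eif2s3y, which encodes a subunit of translation initiation factor 2, lay below -3 on the log2 scale in 4 distant livers, 4 adjacent livers and 8 tumors, all of mice 3 to 6, and in control livers 1 and 2, and was above 0 in every LAP-tTA and TRE-MET liver. At 26 of 105 members the distant livers with low Eif2s3y did not overlap those with Eif2s3y present, and 12.5% of all probe sets did so. In adjacent livers this held for 27 members, with 11.4% of all probe sets, and 16 members separated both sets of livers in the same direction, with 3.93% of all probe sets. Cyp17a1 ranged from 3.20 to 4.16 in Eif2s3y-low distant livers, against 1.56 to 1.88 where it was present, and Golm1 from 0.23 to 0.84, against -0.94 to -0.75. Cyp17a1 was also higher in both Eif2s3y-low control livers, at -0.21 and -0.16, against -2.35 to -1.67 in the other 5. Ifi204, Itih5 and Golm2 were likewise higher, and Atp2b2, a plasma membrane calcium pump, lower in Eif2s3y-low distant livers. In control livers, of which 2 were Eif2s3y-low, 5 of the 16 members were separated the same way and 11 were not. The share of all probe sets separated in control livers was not counted, so 5 of 16 cannot be called many or few. The Eif2s3y-low minus present difference there was 0.01 for Ifi204, 0.11 for Golm1, 0.14 for Golm2 and 0.18 and -0.10 for the Itih5 probe sets, and for Atp2b2 it was 0.61, against -0.80 in distant livers.

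Restricted to livers with Eif2s3y present (3 distant, 5 control), the median size of the distant minus control difference was 0.78, against 0.81 in all livers. The difference moved by more than 0.5 for 6 members. For Cyp17a1 it was 3.59 in the restricted set and 4.23 in all, for Ifi204 1.19 and 1.90, for Golm1 0.63 and 1.38, for Golm2 0.98 and 1.60, for 1 Itih5 probe set 1.48 and 2.08, and for Atp2b2 2.08 and 1.45. Atp2b2 probe sets that were not members differed by 0.14, 0.06 and 0.20 in all distant against all control livers. All LAP-tTA and TRE-MET livers had Eif2s3y present, so it did not vary between livers of that comparison. Its part in the other results was not tested.

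**Figure D5:**
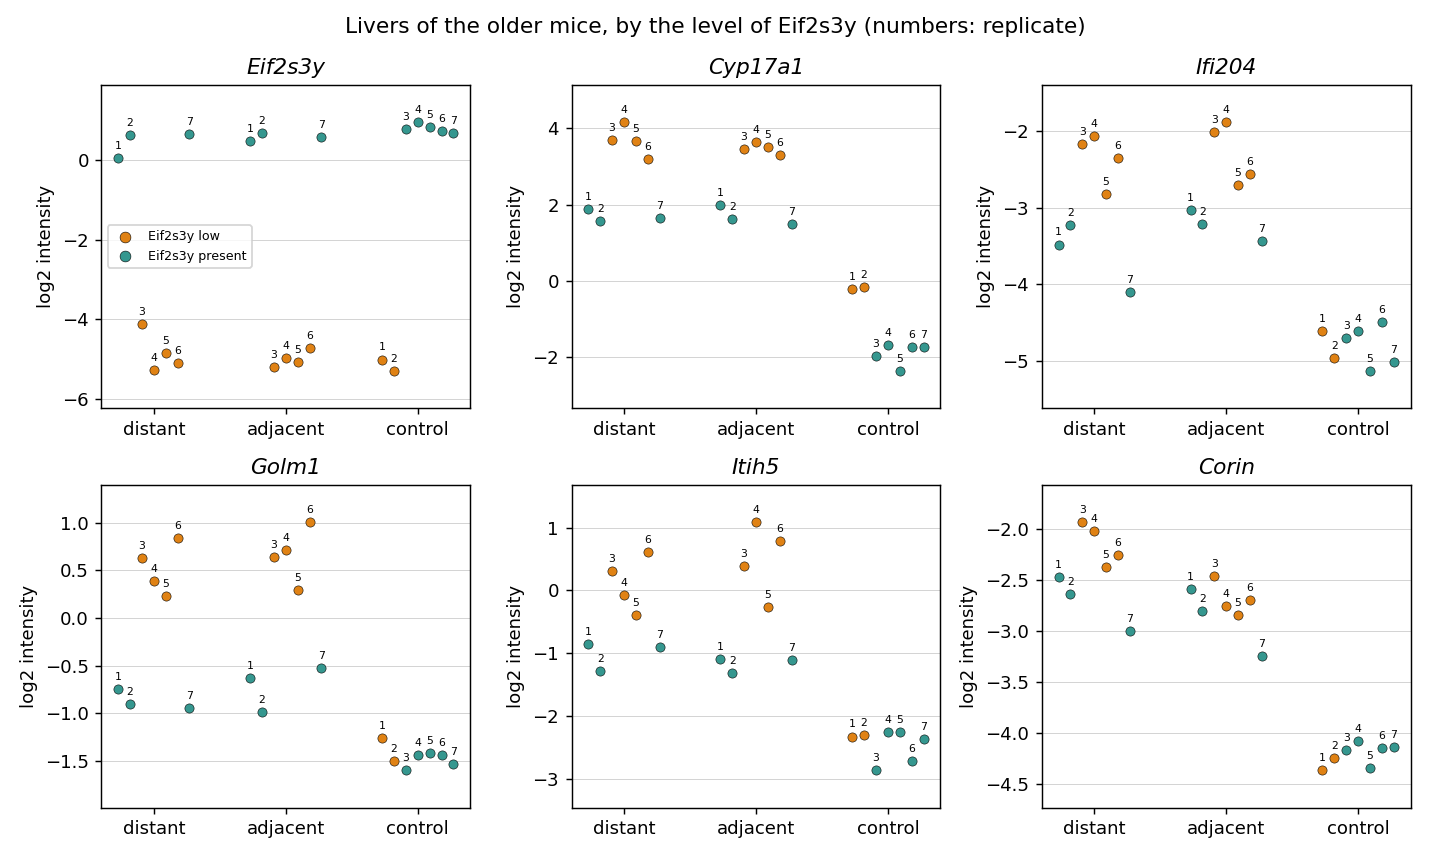
Log2 intensity of Eif2s3y and 5 members in distant, adjacent and control livers, with 1 numbered point per liver, colored by Eif2s3y low or present. In Cyp17a1, Ifi204, Golm1 and Itih5 the low livers stand above the present ones in distant and in adjacent livers, while in Corin the adjacent livers mix.

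Some lists of related genes were set beside the members they contain, which are left out of the counts because the rule fixed their direction, at the brightest probe set of each gene. By limma, 9.36% of all named genes were called in LAP-tTA against TRE-MET livers (5.04% higher, 4.32% lower) and 6.84% in distant against control livers (3.33% higher, 3.51% lower). Of 20 glutathione transferases other than Gstm5, 12 were higher and 0 lower in LAP-tTA than in TRE-MET livers, and 0 were higher and 4 lower in distant than in control livers. Gsta1, at 3.58 higher in LAP-tTA livers, and Gsta2, at 3.31, were examples in the first comparison, with differences of 0.02 and -1.02 in the second. The 4 lower in distant livers were Gsta2, Gsta4, Gstm1 and Gstm2. Over the whole list, Gstm5 included, the mean log2 level was 2.69 to 2.96 in LAP-tTA livers and 1.56 to 2.36 in TRE-MET livers. It was 2.39 to 2.58 in distant livers and 2.34 to 2.72 in control livers, so the lowest livers were TRE-MET livers. The TRE-MET livers were not uniform elsewhere, as livers 6 and 7 lay apart from the other 5 at Akr1c19. Cebpb was 2.45 to 3.15 in TRE-MET livers 1 to 5, and 1.99 and 2.01 in livers 6 and 7. Whether this list divides them alike was not tested, so its counts may not hold for each TRE-MET liver. Of 13 genes of purine breakdown other than Xdh, 1 was higher and 1 lower in each comparison, the higher being Aox1 (1.93) in LAP-tTA livers and Urad (0.54) in distant livers. Of 9 genes of natriuretic peptide processing other than Corin, 0 were higher in either comparison, 1 was lower in LAP-tTA livers and 3 in distant livers, the receptor Npr2 among both at -0.72 and -2.25.

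Among 21 sex-biased liver genes other than Cyp17a1, 3 were higher and 4 lower in LAP-tTA livers, and 0 higher and 3 lower in distant livers. Eif2s3y was low in 4 distant livers and present in 3, and low in 2 control livers and present in 5. In distant against control livers, large differences in both directions went uncalled, such as Hsd3b5 at -3.37, Cyp4a12a at -2.73 and A1bg at 2.15. The counts for distant livers are therefore not read as absence of a shift, and the part of Eif2s3y in them was not tested. Targets of PPAR alpha (21 measured) had 14 higher and 0 lower in LAP-tTA livers, and 2 higher and 6 lower in distant livers. Targets of CAR and PXR (24) had 12 higher and 0 lower, and then 1 higher and 6 lower. The thyroid hormone axis (13) had 3 higher and 1 lower, and then 2 and 2, the C/EBP family and partners (11) had 0 higher and 1 lower, and then 0 and 0, the MET pathway (24) had 0 higher and 3 lower, and then 1 and 2, and the glycerophosphodiester phosphodiesterases (8) had 0 higher and 2 lower, and then 0 and 1. For PPAR alpha targets the mean log2 level was 1.46 to 1.70 in LAP-tTA, 0.59 to 1.17 in TRE-MET and 0.92 to 1.95 in control livers. For CAR and PXR targets it was 0.90 to 1.07, -0.10 to 0.63 and 0.57 to 2.39. LAP-tTA livers thus lay within the control range for both lists. For these lists, too, a division among the TRE-MET livers was not tested. The lists were chosen with earlier results known, and none of the PPAR alpha, CAR and PXR, thyroid, C/EBP, MET or phosphodiesterase genes was a member.

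Across samples, the sample medians lay between -3.42 and -3.20 on the log2 scale. Correlation with the mean of the others was 0.991 to 0.998 for the 35 livers and 0.987 to 0.996 for 13 tumors, but 0.952 for tumor 1b. In tumor 1b the summed linear intensity of stellate cell and fibroblast markers was 320, against 19.2 to 75.1 in the other tumors, that of cholangiocyte markers 29.1, against 3.06 to 12.1, and that of hepatocyte markers 262, against 362 to 434. It lay outside the other 13 tumors at 59 of 105 members, and at 42.3% of all probe sets. Without it, 65 members passed in tumors against adjacent livers, 60 of them shared with the 61. Its part in the other results was not tested beyond the values given.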

How the data were processed

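Total RNA of mouse liver was amplified, biotin-labelled and hybridized to a custom Affymetrix array in 49 samples. The authors normalized with RMA, of no stated version, and deposited intensities on a linear scale, from 0.0169 to 143.6. Every array had a mean linear intensity of 1.00, while the medians of the arrays differed. Arrays have no depth, so precision rests on how many there were. The deposited intensities were taken to log2 with no added constant, filter or further normalization. Symbols came from the annotation of the array, which named 30342 of 43681 probe sets, with 6202 updated through a table of RefSeq genes, and promoters from RefSeq on GRCm38.p6. Groups and mouse numbers came from the labels. The p-values measure the spread between the mice sampled.

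Tumors were compared with adjacent livers by a two-sided test in limma 3.58.1 (lmFit, eBayes) under R 4.3.3, with both tumors of a mouse averaged and Benjamini-Hochberg adjustment over all probe sets. Lists of genes were read at the brightest probe set in the same kind of fit of LAP-tTA against TRE-MET and of distant against control livers. Tumors and adjacent livers came from the same 7 mice, but the main fit held no term for the mouse and so was unpaired. The deviations of same-numbered samples from their group means correlated at 0.03 to 0.34, and 3 of 7 samples correlated best with their own mouse. With the mouse as a replicate block, 57 members passed, all shared with the 61. Tables were made with Python 3.11.15. The fit was checked on simulated data. Named genes were the given markers, the 12 largest differences in each direction, the 6 largest tumor changes in each direction, members of 10 pathway and 9 cell type lists, members at which no tumor or not all adjacent livers lay beyond the TRE-MET and control range, those nearest the threshold, neighbours, and genes with several member probe sets. The members and the lists were chosen with earlier results of these data known. Alternatives were another scaling, a filter on dim probe sets, tumor a or b alone, all groups in 1 fit, each mouse left out, a stricter threshold and other forms of the rule. Leaving out tumor 1b was chosen after seeing the data.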

Additional observations from a re-analysis of the deposited data

Results flagged for a closer look

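Within groups of 7 samples, 8 of 170 groups examined held a sample far from the others, and chance flags about 1 group in 20. The median position over members was 0.75 in adjacent liver 2, against 0.82 to 0.87 in the other adjacent livers. At Hacl1, TRE-MET liver 4 stood at 3.99, against 4.38 to 4.56 in the other TRE-MET livers. Pira2 was -3.54 in distant liver 7, against -2.54 to -1.78 in the other distant livers, and Cnot11 was 0.31 in the same liver, against -0.06 to 0.10. Ctnnbip1 was 0.52 in adjacent liver 4, against 0.76 to 0.93. The dimmer Itih5 probe set was -1.65 in LAP-tTA liver 5, against -2.01 to -1.87. Among control livers, Trim30d was -4.16 in liver 7, against -3.73 to -3.46, and Snrnp25 was -0.26 in liver 2, against -0.79 to -0.58.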

How the results depend on the processing

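The number of members moved with the form of the rule. It kept 225 probe sets with 1 sample allowed on the wrong side, 283 without the TRE-MET group, 398 without the control group, 298 without the LAP-tTA group, 602 without the distant group and 16 with a gap of at least 0.5, fewer groups or a wider gap being part of each construction. Quantile normalization gave 104 probe sets, 94 of them among the 105, equal sample medians gave 90, with 81 among the 105, and leaving out TRE-MET liver 1, whose age label differs, gave 112. At an adjusted p of 0.01, limma called 8191 probe sets in tumors against adjacent livers, 1592 in LAP-tTA against TRE-MET livers and 874 in distant against control livers. Leaving out each mouse in turn gave 51 to 63 members and 11252 to 15014 probe sets called in tumors. The replicate block by mouse lost Atp2b2, Slc29a3, Dctn3 and Ccdc59 and changed no other member's call. Replicate numbers of LAP-tTA and TRE-MET livers mark different animals, and a replicate block there gave 2725 calls, against 2998, and 1567, against 2212, for distant and control livers. For named genes, 296 of 308 alternative values in tumors against adjacent livers kept their direction and side of the threshold, 12 kept the direction and lost the call (Trim30d in 9, Pira2 in 3) and 0 reversed. The cause of these changes was not tested. Precision is limited by 7 mice a group, by dim probe sets and by probe sets that can bind more than 1 transcript.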

Other observations

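Markers of the cell types that whole liver can hold were also counted in both comparisons that the rule used, leaving out Lyve1 and Spp1, whose direction the rule fixed. In LAP-tTA against TRE-MET livers, limma called higher and lower 1 and 1 of 9 hepatocyte markers, 0 and 0 of 10 Kupffer cell and macrophage markers, 1 and 1 of 9 lymphocyte markers, 0 and 2 of 8 neutrophil markers, 0 and 2 of 9 sinusoidal endothelium markers, 2 and 1 of 11 stellate cell and fibroblast markers, 0 and 1 of 6 cholangiocyte markers, 2 and 0 of 4 erythroid markers and 0 and 0 of 13 markers of pancreas, fat and muscle. In distant against control livers the counts were 1 and 1 for hepatocytes, 0 and 0 for Kupffer cells, 0 and 0 for lymphocytes, 2 and 0 for neutrophils, 0 and 0 for endothelium, 0 and 7 for stellate cells, 0 and 0 for cholangiocytes, 0 and 0 for erythroid cells and 1 and 0 for pancreas, fat and muscle. The part of cell composition in the members' levels was not tested.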
